A study of Mus musculus with 4 samples.

Results

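The genes described here build the machinery that licenses DNA replication origins and copies DNA at the fork, together with the genes that supply deoxynucleotides, repack chromatin behind the fork and switch on S phase. They were taken as a fixed list of 56 gene symbols, drawn up by their known roles with earlier results of these data known, and all 56 were found among the 51912 Ensembl genes of the deposited files. All 56 also passed the filter on low values described below. They were sorted into 11 groups by role, from origin recognition to the E2F transcription factors. A separate list of 51 other replication genes, among them the remaining origin recognition subunits, was read in the same way.

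The study measured RNA in long-term haematopoietic stem cells (LT-HSCs) of wild-type (WT) and Fam122a knockout (KO) mice, with 2 libraries of each genotype, called WT1, WT2, KO1 and KO2 after their replicate numbers. All mice were of the C57BL/6 strain and aged 8 to 12 weeks, and the sort gate was LSK (lineage-negative, Sca1+ and Kit+) without CD34 and Flk2. RNA of each library came from cells pooled from 3 animals, so a library carries no spread between animals. Whether the knockout was germline or conditional, and which cells lost the gene, is not given in the sources used here. The FAM122A protein inhibits the phosphatase PP2A with its B55 subunit, an enzyme that acts on many cell cycle proteins. Its single-exon gene (chr19:24476502-24477356, minus strand, GRCm38) had a value of 18.4 FPKM in WT1 and 7.46 FPKM in WT2, and it was listed at 0 in both KO libraries.

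Origins of replication are licensed in G1. The origin recognition complex (ORC), with CDC6 and CDT1, loads the ring of 6 MCM proteins onto DNA. At the start of S phase, kinases and loading factors add CDC45 and the GINS complex, which turns the ring into the moving helicase. Polymerases, the PCNA clamp and its loaders then copy both strands, and E2F factors drive transcription of many of these genes. LT-HSCs are known as mostly quiescent cells, in which such genes are usually low, while the progenitors below them divide often.

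The libraries differed in more than genotype. The deposited values carry no unit and were taken as FPKM. FPKM are fragments scaled to gene length and to the mapped fragments of the library. On that reading, levels of different genes can be compared within a library. Steps among low values implied 4260000 and 2520000 fragments in WT1 and WT2, and 6790000 and 6020000 in KO1 and KO2. WT2 stood apart: loci outside the Ensembl annotation held 53.9% of its summed FPKM, against 9.14% in WT1 and 1.74% and 1.81% in the KO libraries. The 10 LT-HSC markers summed to 477 FPKM in WT1 and to 478 and 486 FPKM in the KO libraries, with none at 0 and medians of 24.8, 25.4 and 26.3 FPKM. In WT2 their median was 2.31 FPKM with 2 of 10 at 0: Kit was at 2.26 FPKM and Ly6a, which encodes Sca1, was listed at 0, while Mecom (254 FPKM), Fgd5 (67.6 FPKM) and Ctnnal1 (51.5 FPKM) made up most of the sum of 397 FPKM. Cd34, whose protein the gate excludes, was at 179 FPKM in WT1, against 87.7 and 62.1 FPKM in KO and 18.2 FPKM in WT2, and Flt3, which encodes Flk2, was at 26.2, 36.2, 24.7 and 16.1 FPKM in WT1, KO1, KO2 and WT2. Markers of other blood cells were abundant too: 7 mature neutrophil genes summed to 165000 FPKM in WT1 and to 70430 and 60790 FPKM in KO. All 11 erythroid markers, all 11 B-cell precursor markers and 14 of 15 mitosis markers were higher in both KO libraries than in WT1. Their sums in WT1, KO1 and KO2 were 51670, 59850 and 79710 FPKM for erythroid markers, 291, 1617 and 2467 FPKM for B-cell precursor markers, and 1231, 1592 and 2063 FPKM for mitosis markers. None of these markers was at 0 in those 3 libraries, and their part in the results below was not tested. In bulk RNA, more cells of a dividing type and more RNA per cell cannot be told apart.

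The main comparison set both KO libraries against WT1, and WT2 is described separately. Over the replication genes as a group, the KO libraries were mostly above WT1, by small amounts. Both KO libraries lay above WT1 in 38 of 56 genes (67.9%) and below it in 9 (16.1%). In the remaining 9 genes WT1 lay between the KO libraries. Among all 16580 genes tested the corresponding shares were 40.1% above and 46.2% below. Well expressed genes as a whole leaned upward as well: of the 8872 genes with a mean of at least 10 FPKM, 50.4% were above and 36.1% below. The median log2 difference was 0.41 over the replication genes, 0.30 over the 51 other replication genes, 0.12 over genes of at least 10 FPKM and -0.06 over all genes tested. These differences are on the log2(FPKM + 1) scale. Summed over the list, the replication genes held 3261 FPKM in WT1 and 3965 and 4723 FPKM in the KO libraries, which was 0.342%, 0.485% and 0.589% of all Ensembl FPKM.

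Only 1 of the 56 genes, Lig1, passed the test, and it rose in KO. With limma and Benjamini-Hochberg adjustment over all genes, calls made up 0.814% of the genes tested in the upward direction (135 genes) and 12.9% in the downward direction (2132 genes), so 1 higher call among 56 is a share near the background. None of the 56 was called lower. At an unadjusted p under 0.05, 10 of the 56 were higher and 1 was lower in KO. Over all 16580 genes tested, 1966 were higher and 3860 lower at that threshold. None of the 51 other replication genes was called, in either direction. With a lone WT library, the spread came from the KO pair and WT1 was assumed to vary like it. With each library scaled to the same median, 1585 genes were called higher and 3160 lower in place of 135 and 2132, and 14 replication genes were called higher and 1 lower. With quantile normalization the calls were 536 higher and 1696 lower.

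**Figure D1:**
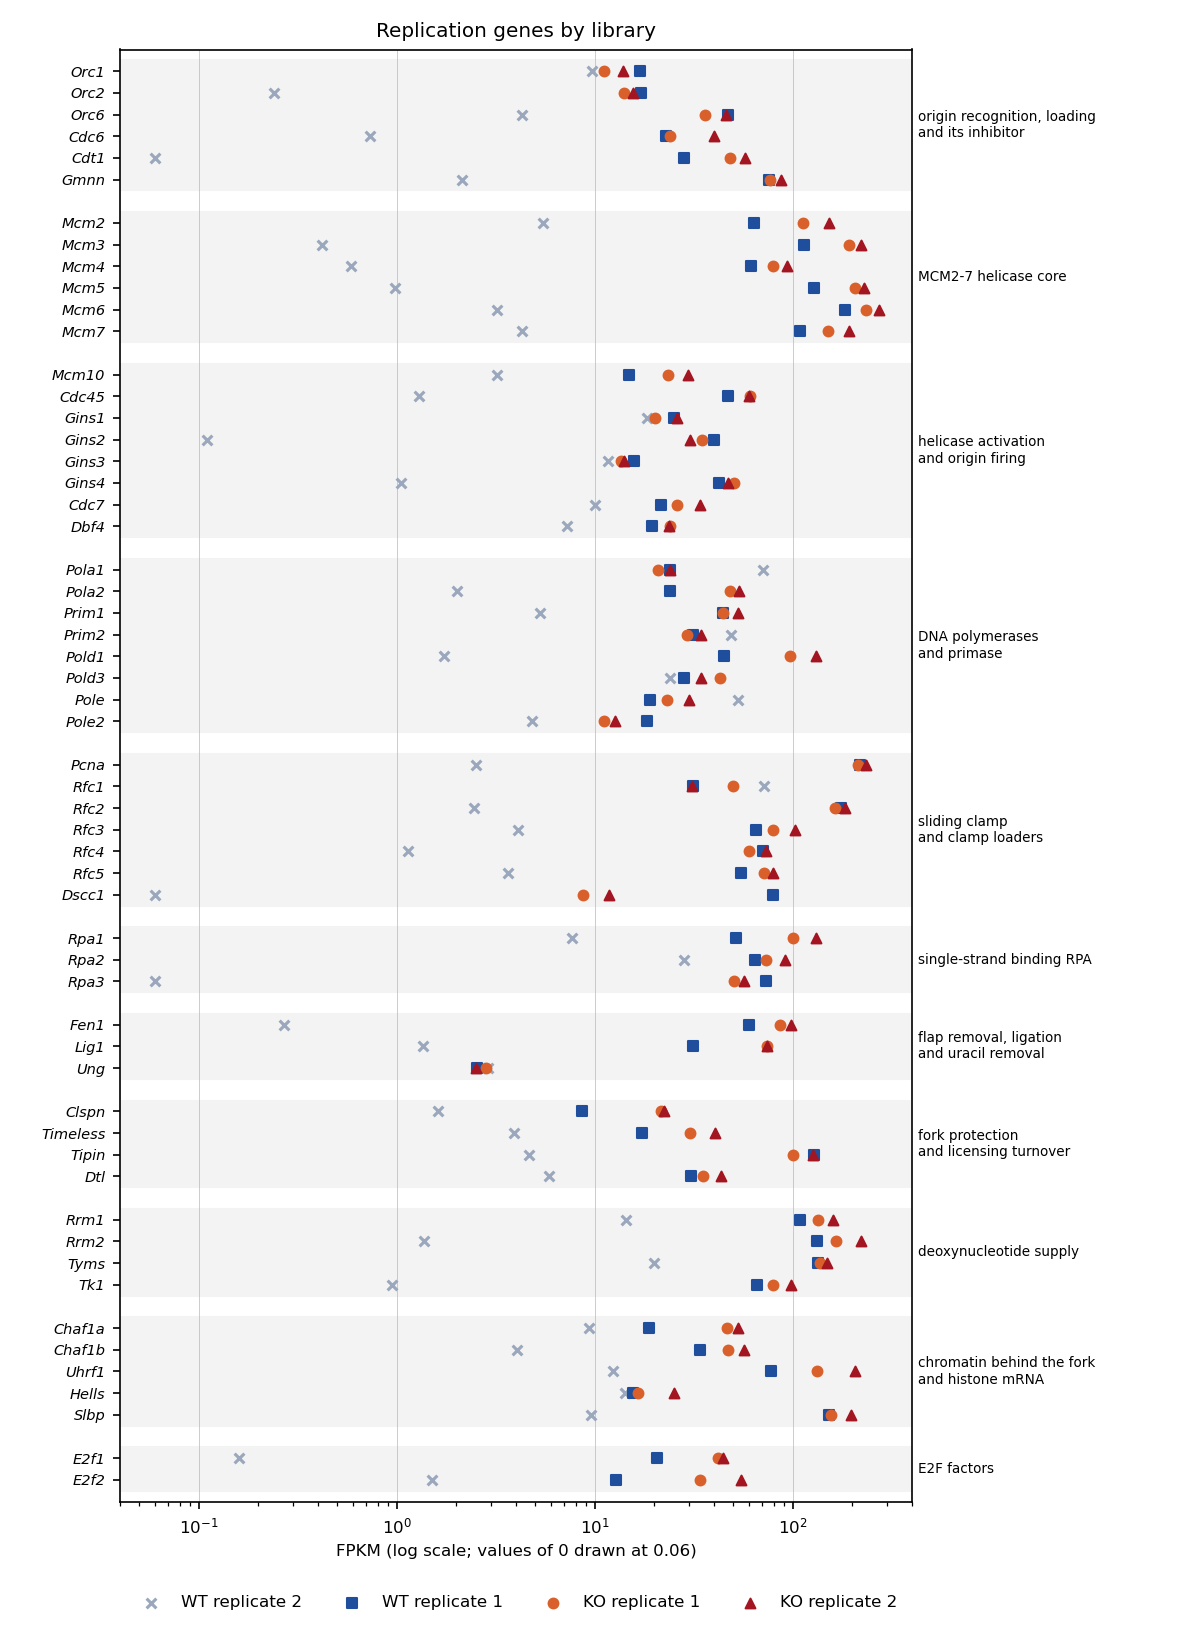
FPKM of the 56 replication genes in each library on a log scale, by role, with values of 0 drawn at 0.06. Grey crosses are WT2, blue squares WT1, and orange circles and red triangles KO1 and KO2; the 3 main libraries lie close together for most genes, with Dscc1 as the widest gap, and WT2 lies far to the left for most.

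All 6 genes of the helicase ring were higher in both KO libraries than in WT1, with log2 differences from 0.46 to 1.02 and a median of 0.70. Mcm2 was at 63.9 FPKM in WT1 and at 113 and 152 FPKM in KO1 and KO2. Its KO mean of 132 ± 27.5 FPKM (SD, n = 2) was 2.07-fold that of WT1 (a log2 difference of 1.02, SE 0.27, limma adjusted p = 0.168). Mcm6, the most abundant subunit, had the smallest difference, with 183 FPKM in WT1 and 235 and 271 FPKM in KO (a log2 difference of 0.46, SE 0.14, limma adjusted p = 0.196). The values of Mcm3 were 113 FPKM in WT1 and 192 and 220 FPKM in KO. Mcm5 read 127 FPKM in WT1 against 205 and 229 FPKM in KO, and these 2 subunits had the tightest estimates of the ring, with log2 differences of 0.85 (SE 0.13) and 0.76 (SE 0.12). Mcm4 stood at 61.2, 79.6 and 93.7 FPKM in WT1, KO1 and KO2. Mcm7 stood at 109, 151 and 192 FPKM in the same order. The subunits kept the same rank in these 3 libraries: Mcm6 was highest, followed by Mcm5, Mcm3, Mcm7, Mcm2 and Mcm4. No ring subunit passed the adjusted threshold with limma. All 6 lay above WT1 in both KO libraries, as did 40.1% of all genes tested. Among genes of at least 10 FPKM that share was 50.4%. With a lone WT library most genes lie on 1 side of it.

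The ORC, which binds origins and recruits the ring, did not share this pattern. Orc1 encodes an ATP-binding subunit whose level is known to follow the cell cycle. It was at 16.9 FPKM in WT1 and at 11.2 and 13.9 FPKM in KO. Its log2 difference was -0.41 (SE 0.23, limma adjusted p = 0.338). Orc2 read 17.1 FPKM in WT1 and 14.1 and 15.5 FPKM in KO. Orc6 read 47.1 FPKM in WT1 and 36.0 and 46.1 FPKM in KO, so its second KO library was close to WT1. The remaining subunits came from the list of other replication genes and were set beside these after their values were seen. Orc3 was at 57.2, 49.2 and 46.9 FPKM in WT1, KO1 and KO2, Orc4 at 51.1, 32.4 and 39.7 FPKM, and Orc5 at 25.2, 16.5 and 20.9 FPKM. Limma gave adjusted p = 0.243 for Orc4 (SE 0.19) and 0.327 for Orc5 (SE 0.23). All 6 ORC genes were thus lower in both KO libraries on the deposited scale, as were 46.2% of all genes tested. Among genes of at least 10 FPKM that share was 36.1%. The log2 differences of the ORC genes lay between -0.50 and -0.19, but 2 of 6 turned slightly positive (0.03 at most) with equal summed FPKM. Only 3 of 6 were then below WT1 in both KO libraries, and 4 of 6 with libraries scaled to the same median. No ORC gene passed the test. With quantile normalization the MCM differences ran from 0.36 to 0.91 and the ORC differences from -0.59 to -0.16. With WT2 included, 4 of the 6 ORC differences were positive. The difference between the complexes was seen in the data and not tested. Orc2 shares 29.8% of its exonic bases with Nif3l1 on the opposite strand, and the kit does not mark strand, so its values are uncertain.

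**Figure D2:**
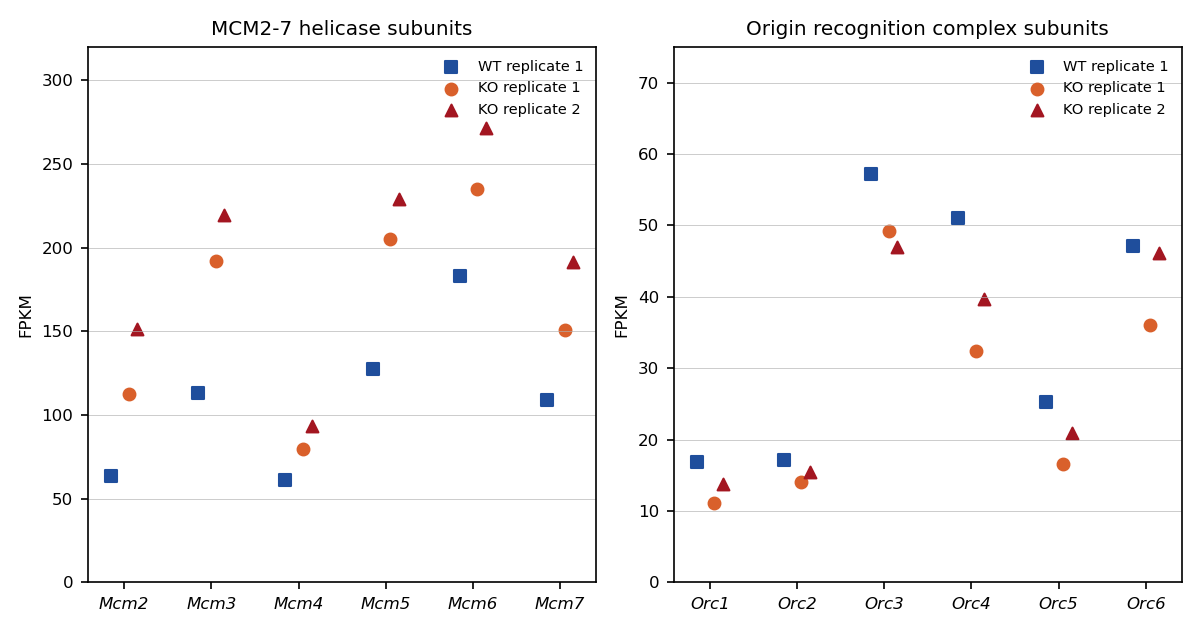
FPKM of the 6 helicase subunits (left) and the 6 ORC subunits (right) in WT1 (squares), KO1 (circles) and KO2 (triangles), on separate linear axes that start at 0. Both KO points are above the WT point for all 6 Mcm genes and below it for all 6 Orc genes on the deposited scale; scaled to equal summed FPKM, 2 of the 6 Orc genes turn slightly positive.

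Among the other licensing genes, Cdt1 had the largest difference. CDT1 escorts the MCM ring to the ORC, and its gene was at 28.1 FPKM in WT1 and at 48.2 and 57.4 FPKM in KO (a log2 difference of 0.88, SE 0.17, limma adjusted p = 0.127). Cdc6, its partner in loading, was at 22.9 FPKM in WT1 and at 24.1 and 39.9 FPKM in KO, so the KO libraries differed more from each other than the lower of them from WT. Geminin (Gmnn), which binds CDT1 and blocks loading after S phase begins, was nearly level at 75.8, 77.1 and 87.0 FPKM. Both of these lay higher in KO2 than in KO1.

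Promoters of several of these genes carry the E2F consensus, and its letters are shown because the ring and the ORC differed in direction on the deposited scale while both hold matches. The words TTTCCCGC, TTTGGCGC, TTTCGCGC and TTTGCCGC were searched on both strands, with overlaps allowed, from 250 bases before to 50 bases after each RefSeq start (GRCm38.p6). Stretches before the start are printed 5′ to 3′ on the gene's strand, with matched words in capitals; the Mcm7 and Orc1 stretches are kept to 30 bases.
Mcm5 (chr8:75109330-75109393, plus strand): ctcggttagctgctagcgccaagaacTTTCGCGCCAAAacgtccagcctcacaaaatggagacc
Mcm6 (chr1:128359719-128359841, minus strand): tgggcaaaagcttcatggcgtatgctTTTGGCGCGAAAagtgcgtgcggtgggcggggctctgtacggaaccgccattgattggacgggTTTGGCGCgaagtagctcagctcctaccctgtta
Mcm7 (chr5:138172030-138172059, minus strand): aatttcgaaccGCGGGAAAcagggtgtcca
Orc1 (chr4:108579416-108579445, plus strand): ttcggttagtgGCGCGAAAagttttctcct

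Mcm5 holds 2 overlapping words in this stretch and Mcm6 holds 3, a pair of which overlap. A word was present in 19 of the 46 replication genes with a promoter in the table (41.3%) and in 10 of 39 other replication genes (25.6%). Of the 11314 tested genes with a promoter, 4.3% held it, as did 2.6% of all 27025 genes in the table. Among replication genes, it was in 15 of 34 with both KO libraries above WT1 (44.1%) and in 4 of 12 of the others (33.3%). It was in 4 of 5 helicase subunits with a promoter and in 2 of 6 ORC subunits. Genes with several annotated starts had more chances of a match, and a match is a description of letters, not of binding.

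Helicase activation genes were mixed. Of the 8, 5 were above WT1 in both KO libraries, 2 were below and 1 lay between, with a median log2 difference of 0.24. Over all genes tested, 40.1% were above and 46.2% below, and over genes of at least 10 FPKM the shares were 50.4% and 36.1%. Mcm10, which helps switch on the loaded helicase, had the largest difference among them and the lowest level in WT1, at 14.97 FPKM in WT1 and 23.3 and 29.7 FPKM in KO (a log2 difference of 0.77, SE 0.23, limma adjusted p = 0.189). Cdc45, a part of the active helicase, was at 46.8 FPKM in WT1 and 60.6 and 59.97 FPKM in KO. The 4 GINS genes, whose proteins form a single complex, did not move together. Gins2 was at 40.1 FPKM in WT1 and 34.6 and 30.3 FPKM in KO (a log2 difference of -0.30, SE 0.14, limma adjusted p = 0.286). Gins3 was at 15.8, 13.5 and 14.0 FPKM in WT1, KO1 and KO2, Gins1 at 25.2, 20.2 and 26.02 FPKM, and Gins4 at 42.4, 50.7 and 47.1 FPKM. Gins2 shares 67.3% of its exonic bases with Gse1 on the opposite strand, which leaves its value uncertain. The origin-firing kinase Cdc7 was at 21.7, 26.04 and 34.0 FPKM, and Dbf4, its activating subunit, was at 19.6, 23.9 and 23.7 FPKM in the same order.

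Polymerase subunits of the same enzyme split for epsilon but not for delta. Both listed delta subunits were above WT1 in both KO libraries, as were Pold2 and Pold4 of the other replication genes. Pold1, the catalytic subunit of polymerase delta, which copies the lagging strand, was at 44.9 FPKM in WT1 and at 96.4 and 131 FPKM in KO. Its KO mean was 2.53-fold that of WT1 (a log2 difference of 1.30, SE 0.28, limma adjusted p = 0.139). Pold3, an accessory subunit, was at 28.2 FPKM in WT1 and 42.8 and 34.5 FPKM in KO. Pole, the catalytic subunit of the leading-strand polymerase epsilon, was at 19.1 FPKM in WT1 and 23.1 and 29.9 FPKM in KO, while its partner Pole2 was at 18.3 FPKM in WT1 and 11.2 and 12.6 FPKM in KO (a log2 difference of -0.59, SE 0.17, limma adjusted p = 0.184). The primase-polymerase alpha complex starts each new strand, and a single gene of it stood out. Pola2, its regulatory subunit, was at 24.0 FPKM in WT1 and at 48.4 and 53.3 FPKM in KO (a log2 difference of 1.05, SE 0.11, limma adjusted p = 0.0718). The catalytic Pola1 was at 24.0, 20.9 and 24.0 FPKM in WT1, KO1 and KO2. Primase subunits were level too, with Prim1 at 44.5, 44.2 and 52.8 FPKM and Prim2 at 31.2, 29.2 and 34.3 FPKM.

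The sliding clamp showed little difference. Pcna, which tethers polymerases to DNA, was among the most abundant of the 56 genes, at 218 FPKM in WT1 and 212 and 235 FPKM in KO, and the 95% interval of its log2 difference ran from -0.47 to 0.53. The loader genes Rfc2 and Rfc4 lay on both sides of WT1 as well, with Rfc2 at 175, 164 and 184 FPKM and Rfc4 at 70.7, 59.8 and 73.6 FPKM in WT1, KO1 and KO2. Rfc1 was at 31.2 FPKM in WT1 and 49.8 and 30.9 FPKM in KO, a wide spread between the KO libraries. Rfc3 was at 65.3 FPKM in WT1 and 79.8 and 102 FPKM in KO (a log2 difference of 0.46, SE 0.23, limma adjusted p = 0.308), and Rfc5 was at 54.8, 71.7 and 79.6 FPKM.

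Dscc1 had the widest gap of all 56 genes. It encodes a subunit of the alternative clamp loader built on CTF18, which is known for loading PCNA at forks and for sister chromatid cohesion. Its value was 79.5 FPKM in WT1, from about 1419 implied fragments, and 8.74 and 11.8 FPKM in the KO libraries, from about 249 and 296. WT1 was 7.75-fold above the KO mean (a log2 difference of -2.85, SE 0.27, limma adjusted p = 0.0634), which did not pass the threshold. In WT2 the gene was listed at 0, so the 2 WT libraries disagreed and the KO values lay between them. The gene spans chr15:55076099-55090491 (minus strand, GRCm38). Its complex partners went the other way: Chtf18 was at 9.36 FPKM in WT1 and 25.8 and 33.2 FPKM in KO, and Chtf8 was at 13.3 FPKM in WT1 and 30.3 and 48.7 FPKM in KO. Their log2 differences were 1.55 (SE 0.24, limma adjusted p = 0.104) and 1.46 (SE 0.43, limma adjusted p = 0.184).

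**Figure D3:**
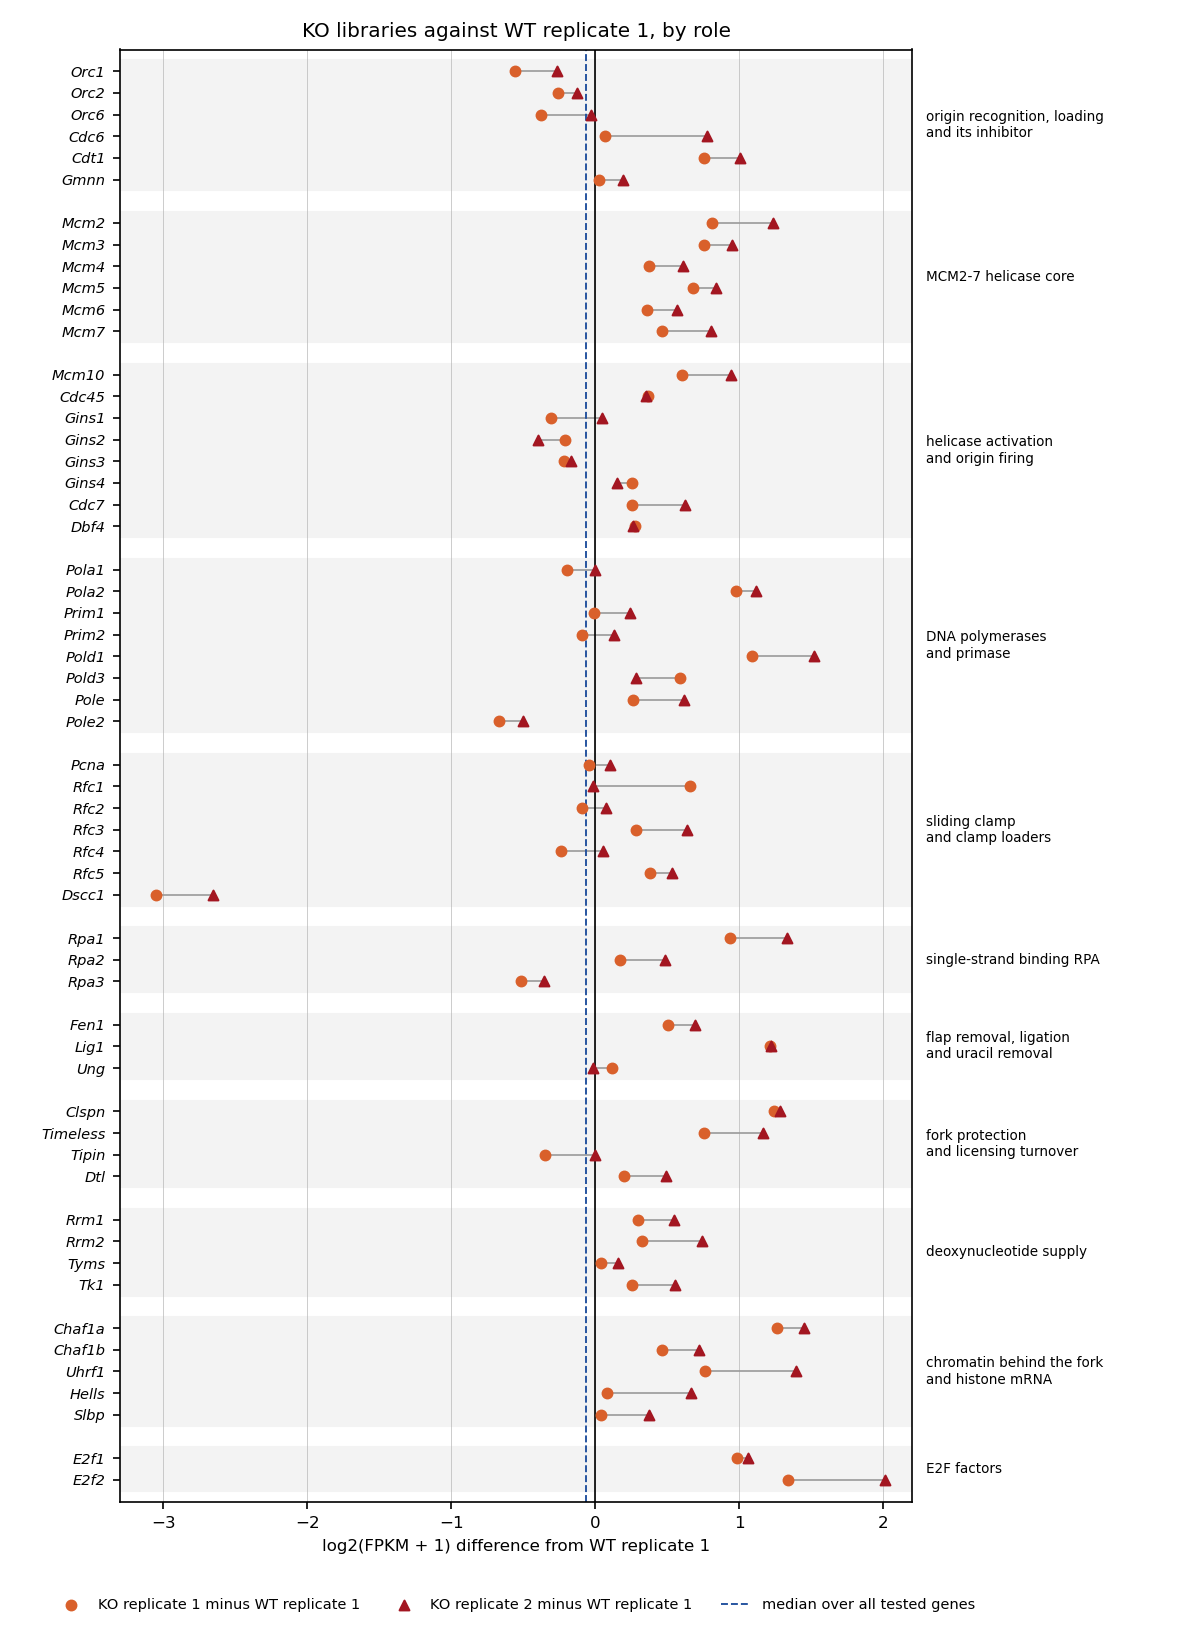
Difference of each KO library from WT1 in log2(FPKM + 1) for the 56 replication genes, by role; circles are KO1, triangles KO2, and the grey bar joins them. The dashed line marks the median over all genes tested at -0.06; the 6 helicase genes lie to the right of 0 in both libraries, the 3 Orc genes lie to the left, and Dscc1 lies near -3.

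RPA coats single-stranded DNA at the fork as a complex of 3 proteins, and its genes differed from each other. Rpa1, the large subunit, was at 51.8 FPKM in WT1 and 100 and 132 FPKM in KO (a log2 difference of 1.13, SE 0.25, limma adjusted p = 0.143). Rpa2 was at 64.6 FPKM in WT1 and 73.0 and 90.9 FPKM in KO. The small subunit Rpa3 was at 73.0 FPKM in WT1 and 50.7 and 56.8 FPKM in KO (a log2 difference of -0.44, SE 0.12, limma adjusted p = 0.173).

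Lig1 encodes DNA ligase I, which seals the nicks between Okazaki fragments, and lies at chr7:13277283-13311433 (plus strand, GRCm38). It was at 31.2 FPKM in WT1 and at 73.7 and 74.2 FPKM in KO1 and KO2, so the KO libraries were nearly equal and well above WT1. The KO mean was 73.9 ± 0.35 FPKM (SD, n = 2), 2.37-fold that of WT1, with a log2 difference of 1.22 (SE 0.06, 95% interval 0.93 to 1.51, limma adjusted p = 0.0327). The call held in 7 of 9 alternatives with a test, over which its adjusted p ran from 0.0105 to 0.418; it was lost at 0.0597 when genes needed at least 1 FPKM in 2 libraries, and at 0.418 with WT2 included. Fen1, the nuclease that trims the flap before ligation, was at 60.3 FPKM in WT1 and 85.8 and 97.9 FPKM in KO (a log2 difference of 0.60, SE 0.13, limma adjusted p = 0.143). Fen1 shares 78.8% of its exonic bases with the antisense gene Gm10143, which was at 1.33 to 1.55 FPKM in these 3 libraries. Ung, the glycosylase that removes uracil from new DNA, was the lowest of the 56 genes in these 3 libraries, at 2.54 FPKM in WT1 and 2.83 and 2.50 FPKM in KO (a log2 difference of 0.05, 95% interval -0.57 to 0.67). With quantile normalization its difference was 1.13 (limma adjusted p = 0.073).

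Fork protection genes leaned upward, apart from Tipin. Claspin (Clspn) links a stalled fork to the checkpoint kinase CHK1, and its gene was at 8.58 FPKM in WT1 and 21.7 and 22.3 FPKM in KO (a log2 difference of 1.26, SE 0.12, limma adjusted p = 0.0666). Timeless, which travels with the helicase, was at 17.4 FPKM in WT1 and 30.1 and 40.3 FPKM in KO. Its binding partner Tipin was at 127 FPKM in WT1 and at 99.9 and 127 FPKM in KO, with a log2 difference of -0.17 (SE 0.23, limma adjusted p = 0.625) that turned to 0.06 when libraries were scaled to equal summed FPKM. Dtl, an adaptor of the ligase that destroys CDT1 in S phase, was at 30.5, 35.0 and 43.3 FPKM in WT1, KO1 and KO2.

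The 4 genes of deoxynucleotide supply were all higher in both KO libraries, as were 40.1% of all genes tested. Their log2 differences ran from 0.10 to 0.54, and none passed the test. Rrm2, the small subunit of ribonucleotide reductase, was at 132 FPKM in WT1 and 166 and 222 FPKM in KO (a log2 difference of 0.54, SE 0.27, limma adjusted p = 0.307). Rrm1, its large subunit, was at 109 FPKM in WT1 and 134 and 159 FPKM in KO. Thymidylate synthase (Tyms) was nearly level at 134, 137 and 150 FPKM (a log2 difference of 0.10, SE 0.10), and thymidine kinase (Tk1) was at 66.3, 79.6 and 98.0 FPKM in WT1, KO1 and KO2.

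Chromatin genes of the fork were also all higher in both KO libraries, as were 40.1% of all genes tested. Their median log2 difference was 0.59. Chaf1a, the large subunit of the histone chaperone CAF-1, was at 18.8 FPKM in WT1 and 46.4 and 53.0 FPKM in KO. Its KO mean was 2.65-fold that of WT1 (a log2 difference of 1.36, SE 0.14, limma adjusted p = 0.0701), but it shares 52.5% of its exonic bases with Ubxn6 on the opposite strand, which was at 17.2, 21.3 and 27.1 FPKM. Chaf1b, the CAF-1 subunit without such a large overlap, was at 33.9 FPKM in WT1 and 47.0 and 56.5 FPKM in KO. Uhrf1, which carries DNA methylation onto the new strand, was at 77.7 FPKM in WT1 and 133 and 206 FPKM in KO. The remodeller Hells was at 15.6, 16.6 and 25.3 FPKM, and Slbp, which binds histone mRNA, was at 152, 156 and 197 FPKM (a log2 difference of 0.21, SE 0.22, limma adjusted p = 0.554).

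Both E2F genes of the list, activators of S phase transcription, were higher in both KO libraries, as were 40.1% of all genes tested. Among genes of at least 10 FPKM that share was 50.4%. E2f1 was at 20.7 FPKM in WT1 and 41.9 and 44.2 FPKM in KO (a log2 difference of 1.02, SE 0.09, limma adjusted p = 0.0590). E2f2 had the largest positive difference of the 56 genes, at 12.9 FPKM in WT1 and 34.1 and 55.0 FPKM in KO, a KO mean 3.46-fold that of WT1 (a log2 difference of 1.68, SE 0.43, limma adjusted p = 0.164). The wide gap between its KO libraries kept the estimate loose. E2f7, a repressor of the family from the list of other replication genes, was at 4.09 FPKM in WT1 and 13.9 and 12.0 FPKM in KO (a log2 difference of 1.45, SE 0.22, limma adjusted p = 0.0998). At the other end of that list was Mtbp, a partner of the origin-firing factor Treslin, at 15.5 FPKM in WT1 and 9.20 and 9.61 FPKM in KO (a log2 difference of -0.67, SE 0.16, limma adjusted p = 0.153).

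In size, 11 of the 56 genes had a KO mean more than 2-fold that of WT1, against 11.2% of all genes tested. The KO libraries also differed from each other in a common direction. KO2 was above KO1 in 49 of the 56 genes (87.5%), against 49.8% of all genes tested. The same order held for all 15 mitosis markers, all 11 erythroid markers and 10 of 11 B-cell precursor markers, while all 7 mature neutrophil markers were lower in KO2. Their part in the spread of the replication genes was not tested. With KO2 alone the median log2 difference from WT1 was 0.54, and with KO1 alone it was 0.27.

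WT2 held little RNA of most replication genes. Its values were at a median of 8.48% of those in WT1, and the list summed to 525 FPKM, or 0.0883% of Ensembl FPKM. Cdt1, Dscc1 and Rpa3 were listed at 0. Of the helicase ring, Mcm3 was at 0.42 FPKM, Mcm4 at 0.59 FPKM, Mcm5 at 0.98 FPKM, Mcm6 at 3.20 FPKM, Mcm7 at 4.27 FPKM and Mcm2 at 5.49 FPKM, and the rank order of the other libraries was not kept. Pcna, at 218 FPKM in WT1, was at 2.51 FPKM. In contrast, 5 genes were above their WT1 level in WT2: Pola1 at 70.4 FPKM, Rfc1 at 71.9 FPKM, Pole at 53.0 FPKM, Prim2 at 48.6 FPKM and Ung at 2.90 FPKM. Pola1 and Prim2 are the genes of the list with the longest genomic span relative to their exons, at 37.1 and 36.4 times the exonic length. Rfc1 was at 12.3 times, but Pole was at 4.59 and Ung at 1.63 times. Gins1 and Tipin, at 17.1 and 12.8 times, were below WT1 in WT2, at 72.5% and 3.66% of its level. Across the 56 genes, the difference of WT2 from WT1 in log2(FPKM + 1) had a Spearman correlation of 0.349 with the ratio of span to exonic length. This describes genes that share the same libraries.

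**Figure D4:**
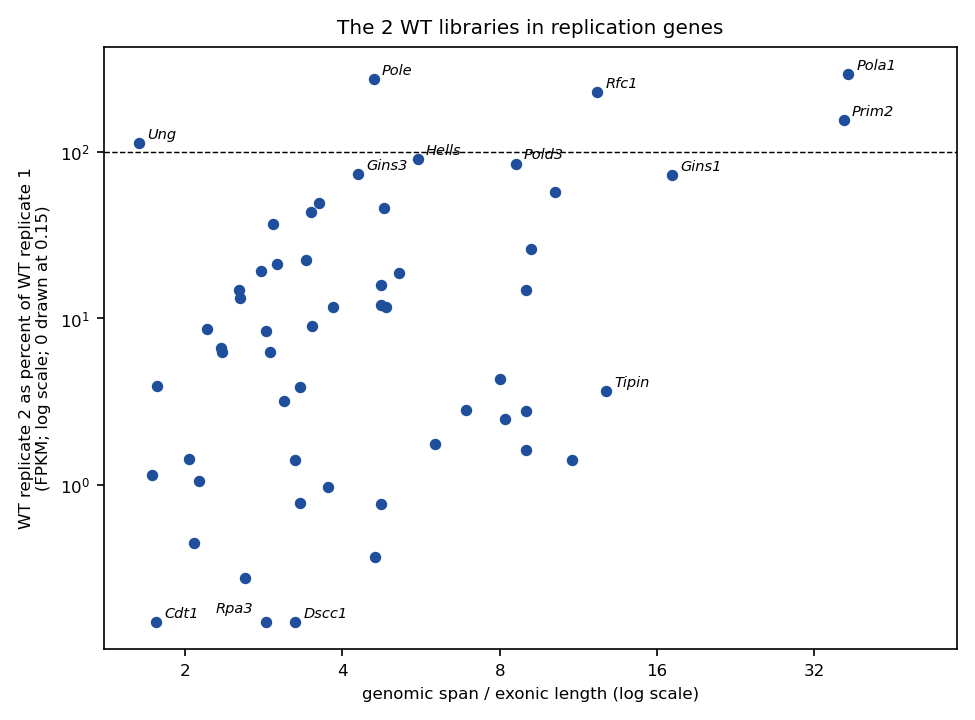
WT2 as a percent of WT1 in FPKM (log scale, 0 drawn at 0.15) against the ratio of genomic span to exonic length (log scale), with 1 point for each of the 56 replication genes. Most points lie below the dashed line at equal levels; Pola1, Prim2, Pole, Rfc1 and Ung lie above it.

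With all 4 libraries, no gene passed the test. Of 20433 genes tested, limma called 0 (0%) after Benjamini-Hochberg adjustment, with a lowest adjusted p of 0.309, while 118 were higher and 2364 lower in KO at an unadjusted p under 0.05. The lowest adjusted p among the 56 replication genes was 0.412, and none had an unadjusted p under 0.05. Both KO libraries were above both WT libraries in 37 of the 56 genes, against 27.1% of all genes tested. The median log2 difference was 2.22 over the replication genes and 1.41 over the 51 other replication genes, as the low values of WT2 enter the WT mean. In this fit the difference of Dscc1 was 0.31 (limma adjusted p = 0.917), since its 2 WT libraries lay on opposite sides of the KO libraries.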

How the data were processed

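RNA of 4 sorted LT-HSC pools was made into SMART-Seq v4 libraries, per the labels. Tools named in the submitters' processing notes are HISAT2 2.1.0, STAR 2.7.1a and bcl2fastq, and builds are mm10 and GRCm38.p5; none is given a role. The deposited files list 1 value per feature; their unit is taken as FPKM from the values, and what the authors did to make them is not given in the sources used here. Loci without an Ensembl identifier were left out of the tests. Genes with a mean of the 2 group means of at least 1 FPKM entered limma 3.58.1 under R 4.3.3, fitted to log2(FPKM + 1) with a trend for intensity, and were called at a Benjamini-Hochberg adjusted p under 0.05. This scale understates differences of low genes. The libraries came from separate pools. Fragments per library were implied from the value steps of single-exon genes, of which 84.2% to 91.4% lay within 0.1 of a whole number. Such depths are estimates, and counting error is only part of the error. Positions, exonic lengths and spans are from GENCODE M21 (GRCm38) and promoters from RefSeq (GRCm38.p6), where 46 of 56 genes had an entry. The genes named with a test were those called, the highest and lowest of each role group, and the 3 highest and 3 lowest of the other replication genes; tests of Pola2 and Fen1 were added after their values were seen. The fit was also run on simulated data in which every library, WT included, had the spread of the KO pair. That run could not check whether the WT libraries vary like the KO pair. The members, gene lists and markers were chosen with earlier results of these data known. Alternatives covered the pseudocount, filter, scaling, span, trend, leaving out libraries and a replicate block.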

Additional observations from a re-analysis of the deposited data

How the results depend on the processing

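The median log2 difference of the 56 genes against WT replicate 1 kept its positive sign in every alternative tried; it was 0.645 with equal summed FPKM, 2.22 with WT replicate 2 included, and 0.54 and 0.27 without KO replicate 1 and 2, where no test was possible with 1 library against 1. Scaling moved the median over all genes from -0.06 to 0.16 (equal summed FPKM), 0.10 (equal median) and 0.17 (quantile), and the median of the 56 genes less that of all genes was then 0.48, 0.48 and 0.17, against 0.48 as deposited. Genes called, 2267 as reported, numbered 1213 with a pseudocount of 0.1, 221 when at least 1 FPKM was needed in 2 libraries, 813 with a filter at 5 FPKM, 10026 with no filter, 4745 with equal medians, 714 among genes of short span and 0 with WT replicate 2. Replication genes called, 1 as reported, numbered 3 with no filter, 15 with equal medians, 2 with quantile normalization, 2 without the trend, and 0 both for short spans and with WT replicate 2. Of the 30 replication genes of short span (under 4 times the exonic length), 22 had both KO libraries above WT replicate 1, beside 3115 of all 6670 genes of short span tested. In the comparison of all 4 libraries, leaving out each library in turn gave 0 to 17144 genes called, 0 to 46 replication genes called and a median of 0.414 to 3.889; the highest values were without WT replicate 1, and without WT replicate 2 the counts were 2267 and 1. Without WT replicate 1, WT replicate 2 was the only WT library, and 21932 genes were tested. Calls in either direction then covered most of all genes tested as well as most of the 56. The count of 46 alone thus does not set replication genes apart. In the comparison of all 4 libraries the median, 2.22 as reported, was 2.43 with a pseudocount of 0.1 and 2.61 with equal medians. With a replicate block 0 genes and 0 replication genes were called and the median was 2.22. Deviations of same-numbered libraries had a correlation of 0.0394. The WT deviations in it carry the low values of WT replicate 2, so it cannot tell whether the numbers pair the libraries. Signs turned for 6 named genes with WT replicate 2, to 2.305 for Gins2, 0.282 for Pole2, 0.314 for Dscc1, 2.668 for Rpa3, -0.021 for Ung and 2.077 for Tipin; Ung ran from -0.016 to 0.114 with either KO library left out and was 1.126 with quantile normalization, and Tipin turned to 0.06 with equal summed FPKM. The cause of these changes was not tested. Dscc1 passed the threshold at an adjusted p of 0.0465 when at least 1 FPKM was needed in 2 libraries, 0.00885 with equal medians and 0.0426 with quantile normalization. Depth is an estimate, and the least covered gene, Ung, rests on about 57 to 100 fragments in the 3 main libraries.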
